A study of Mus musculus with 4 samples.

Results

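The intervals of the 2 FOXA2 peak lists of a mouse uterus series were compared by place, for postnatal day 12 (PD12) against the adult. All intervals on chromosomes 1 to 19 were taken, 807 of the 814 listed at PD12 and 10235 of the 10373 listed in the adult, which together are 11042 of the 35977 intervals in the 4 lists of the series. The other intervals of the FOXA2 lists, 7 and 138, were on chromosome X. Each stage was chromatin of whole female uterus precipitated with a goat polyclonal antibody to FOXA2 (ChIP-seq). The adult library is labelled with days 2.5 and 3.5 of pseudopregnancy together, but the sources used here say neither how the 2 days were joined nor how many animals gave each library. They name no strain, transgene or drug. The lists of RNA polymerase II phosphorylated on serine 2 (POL2) from the same stages served as a second readout. With 1 library for each antibody and stage there is no replicate, and the stages were compared without a test.

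FOXA2 is a forkhead transcription factor that binds DNA as a monomer and can open compacted chromatin for other factors. In the mouse uterus it is made in the glandular epithelium, where it is needed for the glands to form after birth and, in the adult, for the secretion of leukemia inhibitory factor that allows an embryo to implant. Serine 2 phosphorylation marks polymerase that is elongating through gene bodies.

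The promoters printed here are picked examples from under adult intervals at gene starts and do not stand for the rest. Etv5 (an ETS family transcription factor) and Cyp2ab1 (a cytochrome P450) are shown for a forkhead motif in their 300 base promoters. Of the 46 placed promoters touched by an adult interval, these were the only 2 that held one. Trmt2a (a tRNA methyltransferase) is shown because an interval of both stages covered its start, and Bcl6 (a transcriptional repressor) as a start listed in the adult with no PD12 interval and no forkhead motif. Cyp2ab1 and Bcl6 were chosen after their values were seen. Each runs 5′ to 3′ along its gene, from 250 bases before to 50 after the start, and comes from RefSeq on build GRCm38.p6, on the minus strand for Etv5, Cyp2ab1 and Bcl6 and on the plus strand for Trmt2a. All are on chromosome 16. Capitals mark TGTTTAC, at base 166 in Cyp2ab1, or its complement read on the other strand, at base 68 in Etv5.
Etv5: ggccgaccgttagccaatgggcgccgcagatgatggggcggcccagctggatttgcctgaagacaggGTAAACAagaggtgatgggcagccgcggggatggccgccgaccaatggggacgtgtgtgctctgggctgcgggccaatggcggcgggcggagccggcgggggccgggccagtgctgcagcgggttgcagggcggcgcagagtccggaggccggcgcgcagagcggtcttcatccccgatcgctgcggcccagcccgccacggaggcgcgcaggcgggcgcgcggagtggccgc
Cyp2ab1: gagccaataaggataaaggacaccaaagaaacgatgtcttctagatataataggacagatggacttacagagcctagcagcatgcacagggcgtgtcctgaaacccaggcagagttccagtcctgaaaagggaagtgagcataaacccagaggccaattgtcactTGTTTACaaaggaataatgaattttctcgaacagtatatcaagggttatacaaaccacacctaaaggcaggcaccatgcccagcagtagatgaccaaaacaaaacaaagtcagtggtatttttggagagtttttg
Trmt2a: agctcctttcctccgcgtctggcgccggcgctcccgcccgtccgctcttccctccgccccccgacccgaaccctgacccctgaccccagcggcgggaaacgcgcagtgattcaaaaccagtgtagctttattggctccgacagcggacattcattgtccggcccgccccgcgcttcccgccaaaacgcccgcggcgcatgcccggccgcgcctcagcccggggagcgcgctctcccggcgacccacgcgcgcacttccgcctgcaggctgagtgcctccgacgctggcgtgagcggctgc
Bcl6: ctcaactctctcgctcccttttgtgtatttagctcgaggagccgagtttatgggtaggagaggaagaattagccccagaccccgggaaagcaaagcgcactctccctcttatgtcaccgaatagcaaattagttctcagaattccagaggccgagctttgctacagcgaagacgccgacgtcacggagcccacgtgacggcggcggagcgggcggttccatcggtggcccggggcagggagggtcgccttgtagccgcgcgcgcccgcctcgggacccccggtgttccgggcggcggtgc

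Against the full adult list, most PD12 intervals overlapped an adult interval, which was always the wider. Of 807 PD12 intervals 582 (72.1%, exact 95% binomial interval 68.9 to 75.2) overlapped an adult interval by at least 1 bp, and these met 581 of 10235 adult intervals (5.68%, 5.24 to 6.14). The other 225 PD12 intervals and 9654 adult intervals had no partner in the list of the other stage, and are called PD12-only and adult-only here. The PD12 share rested on the length of the adult list and on the overlap asked for, being 10.8% (87 of 807) against the 807 widest adult intervals and 15.4% (124 of 807) where 50% of both intervals had to be covered. The words describe the lists, because the files give neither a score nor a depth from which absence of binding could be read. All binomial intervals here cover counting error only, and intervals of 1 library are not replicates.

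In 558 of the 582 overlapping pairs (95.9%) the PD12 interval lay wholly inside the adult one. In the other 24 the edges crossed, and in 0 pairs did the PD12 interval enclose the adult one. The adult interval was the wider in all 582 pairs, by a median of 2.49 times (interquartile range 2.07 to 3.08). The lists differed in width as a whole, the median PD12 interval being 317 bp and the median adult interval 686 bp, and whether depth or the calling threshold differed between the libraries is not known. No PD12 interval touched 2 or more adult intervals, and 1 adult interval touched 2 PD12 intervals. That adult interval, on chromosome 17, was the widest of its list at 6346 bp, and its PD12 intervals were 3900 and 1446 bp wide. Whether multicopy sequence lies there was not checked.

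**Figure D1:**
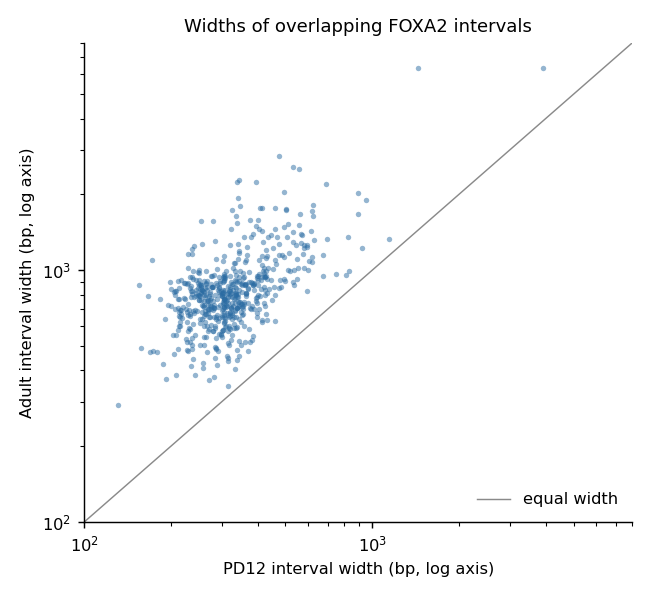
Width of each PD12 FOXA2 interval (x axis, bp, log scale) against that of the adult interval it overlaps (y axis, bp, log scale), 1 point for each of 582 pairs; the line marks equal width. Every point lies above the line, with a median ratio of 2.49.

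The ratio of adult to PD12 intervals varied between chromosomes. Adult intervals outnumbered PD12 intervals 9.0 times on chromosome 11 (657 against 73) and 21.8 times on chromosome 19 (349 against 16), the extremes of the 19 chromosomes. No limits were computed for these ratios, the one on chromosome 19 rests on 16 PD12 intervals, and their difference was not tested. The part of the PD12 list that was shared went from 57.4% (42.2 to 71.7) on chromosome 10 to 88.5% (69.8 to 97.6) on chromosome 16. The binomial intervals of these extremes overlapped, and the difference was not tested.

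Adult intervals often lay in small groups, and PD12 intervals seldom did. A second interval of the same list had its centre within 10 kb for 2180 adult intervals (21.3%, 20.5 to 22.1) and for 34 PD12 intervals (4.21%, 2.94 to 5.84). The adult list is also the longer, and the part of list length in this was not tested. Within the adult list, shared and adult-only intervals had such a neighbour at nearly equal rates, 20.3% (17.1 to 23.8) and 21.4% (20.6 to 22.2). Chained across gaps of up to 10 kb between centres, adult intervals formed 1011 groups of 2 or more, 138 of 3 or more and 17 of 4 or more. PD12 intervals formed 17 pairs and no larger group.

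The 3 adult groups of 5 intervals were at chr9:3023088-3036721, chr13:118003993-118022806 and chr9:69900621-69925407. None of them held a PD12 interval, and each met 1 adult POL2 domain and no PD12 one. Repeated or multicopy sequence was not checked for at any group or PD12 pair, and the use of an input is unknown. A group or pair in the lists therefore need not mean binding. A PD12 interval lay in 3 of the 17 groups of 4 or more, at chr9:61208918-61226304, chr3:101670760-101689530 and chr12:80626593-80648909. POL2 domains of both stages were listed at the first of these, and at the other two the lists had no POL2 domain. A PD12 interval was present in 24 of the 138 groups of 3 or more (17.4%, 11.5 to 24.8) and at 463 of the 8055 adult intervals that stood alone (5.75%, 5.25 to 6.28). Counted by interval, a PD12 interval was met by 118 of the 2180 adult intervals with a neighbour (5.41%, 4.50 to 6.45), close to the share of those that stood alone.

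Each of the 12 tightest PD12 pairs had at least 1 adult interval in its span. The tightest, at chr19:21152660-21153372, spanned 0.713 kb, with 1 adult interval and no POL2 domain listed there. At chr16:96028002-96030643 the 2 PD12 intervals met 2 adult intervals over 2.64 kb, again with no POL2 domain. At chr11:87236468-87240650, in contrast, the pair had 1 adult FOXA2 interval and 2 POL2 domains of each stage.

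The genome build of the files is unnamed, and it was checked before any gene was named. Adult interval centres were set against gene starts of the RefSeq table, which is on GRCm38, and the intervals with a start at each offset were counted in bins of 500 bp up to 1 Mb either way. On files and annotation of 1 build the count should peak at offset 0. On chromosome 17 it peaked at -137 kb, with 40 intervals against 7 at 0 and a mean of 3.98 over all offsets. Other sharp peaks stood at 174.5 kb on chromosome 2 (43 intervals against 7 at 0), at 186.5 kb on chromosome 11 (50 against 4) and at 50 kb on chromosome 6 (51 against 8). Each of these is a single offset shared by many genes of the chromosome, so the files are not on GRCm38. In addition 29 FOXA2 intervals on chromosome 7 and 19 on chromosome 8 began beyond the last GRCm38 gene there. Chromosome lengths were not compared, and chromosome 18 had no start to compare.

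Chromosome 16 was the one chromosome of the 18 compared whose count peaked at 0, with 39 intervals against a mean of 2.62. Windows of 5 or 10 Mb in which the match at 0 held reached over chr16:4964098-55975002. In this stretch of 51.0 Mb, 35 adult intervals matched a start and the next best offset matched 8. The windows had to show an excess at 0, so these counts describe the stretch and do not check it. The count of 39 over the whole chromosome was made without that rule. Limits of the stretch are the outermost matches of any such window, so not every window between them need have passed. Windows of 5 Mb reached over chr16:14162810-36041504 only (21.9 Mb), and the ends beyond it rest on 10 Mb windows. POL2 domains, which had no part in choosing the stretch, had their centres in coding genes for 265 of 369 adult domains (71.8%, 66.9 to 76.4) and 148 of 222 PD12 domains (66.7%, 60.1 to 72.8), while coding genes covered 47.4% of its bases. The POL2 shares were not computed at other offsets, so they cannot tell aligned from shifted positions. On the match at starts alone, positions of the files were read as GRCm38 positions in that stretch and nowhere else, and none was converted. Small shifts inside the stretch were not tested.

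**Figure D2:**
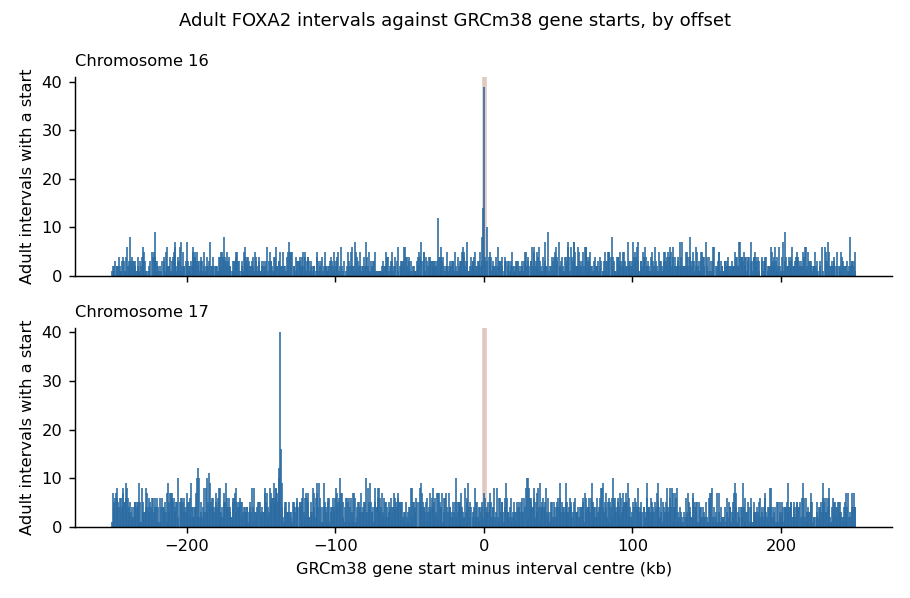
Number of adult FOXA2 intervals (y axis) with a GRCm38 gene start at each offset (x axis, start minus interval centre, kb, bins of 500 bp), for chromosomes 16 and 17; the pale line marks offset 0. Chromosome 16 peaks at 0 with 39 intervals and chromosome 17 at -137 kb with 40.

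The stretch held 10 PD12 and 234 adult FOXA2 intervals, and 9 of each were shared. It is therefore a sample of the PD12 list by position, and the shares for PD12 that follow are coarse. Adult intervals were found at gene starts far more often than the bases there would give. Of the 234 adult intervals 40 (17.1%, 12.5 to 22.5) had their centre within 1 kb of a coding start, where 1.40% of the bases lie. Another 102 (43.6%, 37.1 to 50.2) lay elsewhere in a gene body (46.5% of bases), 20 (8.55%, 5.30 to 12.9) within 10 kb of a gene (8.80%) and 72 (30.8%, 24.9 to 37.1) farther away (43.3%). Starts were those of the RefSeq promoter table, which held one for 336 of the 412 coding genes wholly in the stretch. An interval at a start missing from that table was therefore counted under another location. Matches of adult intervals to starts chose the stretch, so the adult share at starts is a description of it and supports nothing further. In the 50% narrowest adult intervals it was 3.67%. At PD12 2 of 10 intervals lay at starts, 4 in bodies, 1 within 10 kb and 3 farther, and the binomial interval for the share at starts ran from 2.52% to 55.6%.

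**Figure D3:**
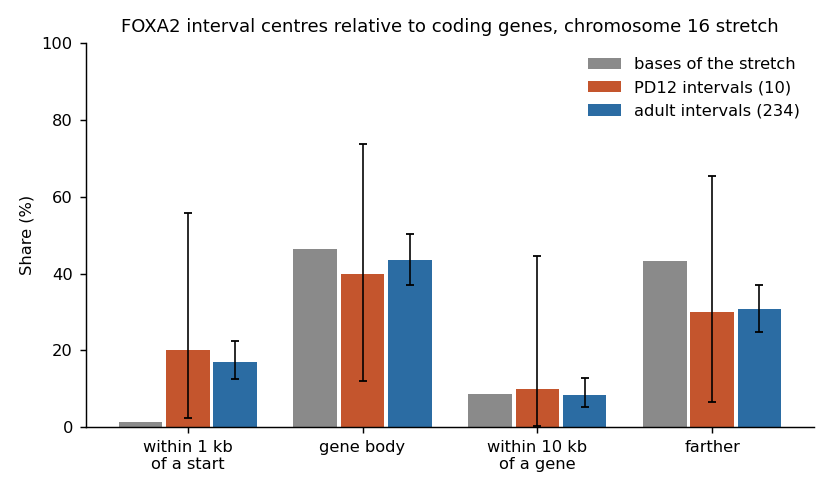
Share (y axis, percent) of bases of the chromosome 16 stretch, of 10 PD12 intervals and of 234 adult FOXA2 intervals by location of the centre (x axis); lines are exact 95% binomial intervals, for counting error only. The adult share within 1 kb of a start is 17.1% where 1.40% of bases lie, and the PD12 intervals are too few to place.

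The 2 PD12 intervals at starts were both shared and both lay in POL2 domains of the 2 stages. One, chr16:18248596-18249223, was 628 bp wide and centred 26 bp after the start of Trmt2a, whose promoter is printed above. Its adult partner was 1322 bp wide. Trmt2a and Ranbp1, a regulator of the Ran GTPase of nuclear transport, start there on opposite strands, and the interval also came within 10 kb of Dgcr8, a partner of Drosha in microRNA processing. POL2 covered 100% of the Trmt2a body at both stages. The other, chr16:22265239-22265654, lay 559 bp after the start of Tra2b, a splicing factor, with 85.1% of that body under PD12 POL2 and 94.4% under adult POL2. The adult interval there was 1135 bp wide, against 416 bp at PD12.

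The 4 PD12 intervals inside gene bodies were in Ppl (periplakin, which links desmosomes to keratins), Spidr (a scaffold of DNA repair), Dgkg (a diacylglycerol kinase) and Fgf12 (an intracellular homologue of fibroblast growth factors). Each overlapped an adult interval, of 946, 1018, 807 and 670 bp in that order, against 429, 328, 366 and 217 bp at PD12. The interval in Ppl lay in an adult POL2 domain and in no PD12 one, and the other three lay in no POL2 domain of either stage. Dgkg and Fgf12 had no POL2 domain on the body at all. Spidr had POL2 on 0.845% of its body at PD12 and 2.09% in the adult.

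The remaining PD12 intervals were away from gene bodies and outside POL2 domains. The one at chr16:52472123-52472516 lay 19.2 kb before Alcam, a cell adhesion molecule, with an adult interval around it and a second adult interval, of 821 bp, next to it at 21.5 kb. The one at chr16:38729701-38730129 was 12.3 kb before B4galt4, a galactosyltransferase of glycan chains. The one at chr16:23833862-23834180 was 55.6 kb from Sst (somatostatin), the nearest coding gene. The one PD12-only interval of the stretch, chr16:25426418-25426639, was 222 bp wide and lay 2.94 kb outside Tprg, in whose body the adult list had 4 intervals.

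Adult intervals at starts were wider than the others. Their median width was 1046 bp (interquartile range 812 to 1160), against 667 bp (553 to 790) for the 194 elsewhere. These 194 may include intervals at starts that the promoter table lacks. When the 234 intervals were split by width into 5 equal parts, 2.13% of the narrowest part (352 to 542 bp; binomial interval 0.0538 to 11.3) and 59.6% of the widest (876 to 2724 bp; 44.3 to 73.6) were at starts. Their centres lay before the start in 22 cases and after it in 18; how close they lay was in part fixed by the match that chose the stretch and is not read here. An adult POL2 domain overlapped 22 of the 40 (55.0%, 38.5 to 70.7) and 25 of the other 194 (12.9%, 8.52 to 18.4). For PD12 POL2 domains these were 12 of 40 (30.0%) and 11 of 194 (5.67%).

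Presence at PD12 did not separate the starts from the rest in the adult list. Of the 40 adult intervals at starts 2 (5.0%, 0.611 to 16.9) were shared, and of the other 194, 7 (3.61%, 1.46 to 7.29). At these counts the limits overlap widely, and the difference was not tested.

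**Figure D4:**
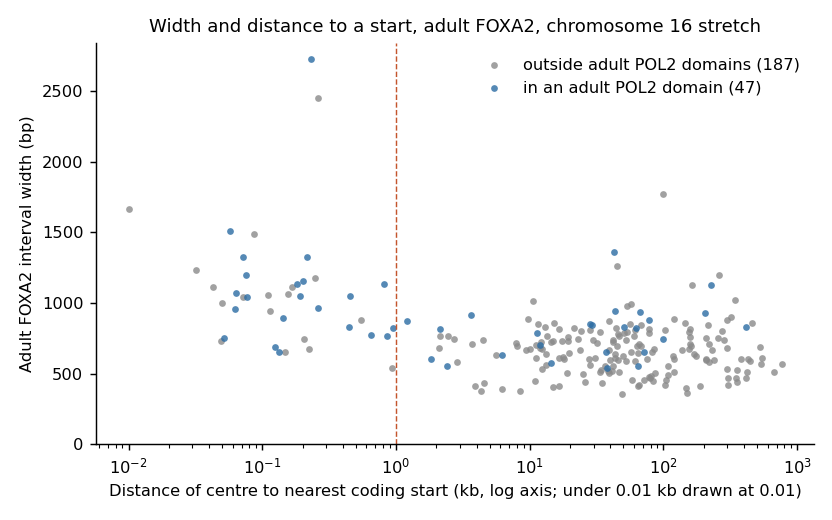
Width of each of 234 placed adult FOXA2 intervals (y axis, bp) against the distance of its centre to the nearest coding start of the promoter table (x axis, kb, log scale). Points are coloured by overlap with an adult POL2 domain, and the dashed line is at 1 kb. Genes without a start in that table are not measured to. Wide intervals gather left of the line, where the median is 1046 bp, and the points right of it have a median of 667 bp.

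Of the 10 widest adult-only intervals of the stretch, 7 lay at starts of the promoter table and 3 elsewhere in gene bodies. The widest, 2724 bp at chr16:38087870-38090593, was centred 230 bp after the start of Gsk3b, the kinase that marks beta-catenin for destruction in Wnt signalling. The next, 2452 bp at chr16:44138844-44141295, was 260 bp after the start of Naa50, an N-terminal acetyltransferase. Cblb, a ubiquitin ligase that restrains receptor signalling, had 1663 bp across its start, and Gspt1, a translation termination factor, had 1506 bp. Etv5 followed with 1488 bp. In the same 10 were Nde1 (1324 bp) and Abcc5 (1236 bp) at starts, and intervals in the bodies of Snx29 (1772 bp), Klhl24 (1361 bp) and Abcc1 (1260 bp). For the Klhl24 and Abcc1 intervals the nearest start in the promoter table was of another gene, Yeats2 and Cep20. Either interval may therefore lie at a start of its own gene. The Gsk3b interval lay in POL2 domains of both stages, and those at Naa50, Cblb and Etv5 in none.

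A coding gene was counted as near FOXA2 when an interval centre lay in its body or within 10 kb of it. Of the 412 coding genes wholly in the stretch, 10 (2.43%) were near a PD12 interval and 134 (32.5%) were near an adult one. All 10 of the first were also among the second, which left 124 near adult intervals alone. These counts compare lists of unequal length: against the 807 widest adult intervals, 24 genes were near an adult interval and 4 of the 10 were near both. Chromosome 16 also had the largest shared part of the PD12 list of the 19 chromosomes, 88.5% against 72.1% for the whole list. That every gene near PD12 FOXA2 was also near adult FOXA2 may therefore not hold elsewhere. The 10 were Dgkg, Spidr, Tprg, Fgf12, Dgcr8, Ppl, Ranbp1, Tra2b, Trmt2a and Ubn1, the last a part of a chaperone complex for histone H3.3. For Tprg the PD12 and adult intervals were different ones, and for the other nine at least 1 adult interval was shared.

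Of the 134 genes, 94 had 1 adult interval, 23 had 2, 9 had 3 and 8 had 4. The 8 with 4 were Dgkg, Spidr, Tprg, Gsk3b, Lpp (a LIM protein of focal adhesions), Mrtfb (a coactivator of serum response factor), Sidt1 and Zfp148 (a zinc finger transcription factor). Gene length moved with this count: genes near adult intervals had a median length of 40.4 kb (interquartile range 15.9 to 94.6) against 20.01 kb (7.31 to 44.0) for the 278 not near one, and its part in the result was not tested. Nr1i2, the pregnane X receptor, also chosen after its values were seen, carried 3 adult intervals in a body of 46.5 kb, at 7.97, 9.74 and 13.5 kb after its nearest start, and no PD12 one.

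POL2 lay on the body of 91 of the 134 genes near adult FOXA2 (67.9%, 59.3 to 75.7) and of 111 of the 278 others (39.9%, 34.1 to 45.9), against 49.0% of all 412. With at least 50% of the body covered the shares drew together, 13.4% (8.16 to 20.4) and 12.2% (8.62 to 16.7). The genes near adult FOXA2 were also the longer (median 40.4 kb against 20.01 kb), and the part of length in these shares was not tested. Of the 336 genes with a start in the promoter table, 38 (11.3%, 8.13 to 15.2) had an adult interval within 1 kb of a start, and adult POL2 lay on 32 of those 38 bodies (84.2%, 68.8 to 94.0). It covered at least 50% of the body in 6 of the 38 (15.8%, 6.02 to 31.2), against 12.6% of all 412. The shares over all 336 were not computed. At PD12, 7 of the 10 genes near FOXA2 had PD12 POL2 (70%, 34.8 to 93.3), against 40.8% of all 412. These 10 are not independent, because Trmt2a, Ranbp1 and Dgcr8 were near the same PD12 interval, and so were Ppl and Ubn1 near another. An adult interval could likewise count for more than 1 gene, and the binomial limits do not allow for this. Whole uterus was used, so the factor and the polymerase may be in different cells, and fewer cells of a type cannot be told apart from less signal per cell.

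Around Etv5 the adult list held a row of intervals and the PD12 list none. The interval at its start was centred 87 bp before it, and others lay 2.87, 13.0, 14.9 and 16.4 kb before it, in the gap between Etv5 and Dgkg. One more lay 30.8 kb away inside Dgkg. Neither gene had a POL2 domain of either stage. The shared interval in Dgkg was the nearest PD12 interval to Etv5. Bcl6 had an adult interval across its start, centred 75 bp before it, and another inside the body, both within an adult POL2 domain that covered 47.3% of the gene and had no PD12 counterpart.

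**Figure D5:**
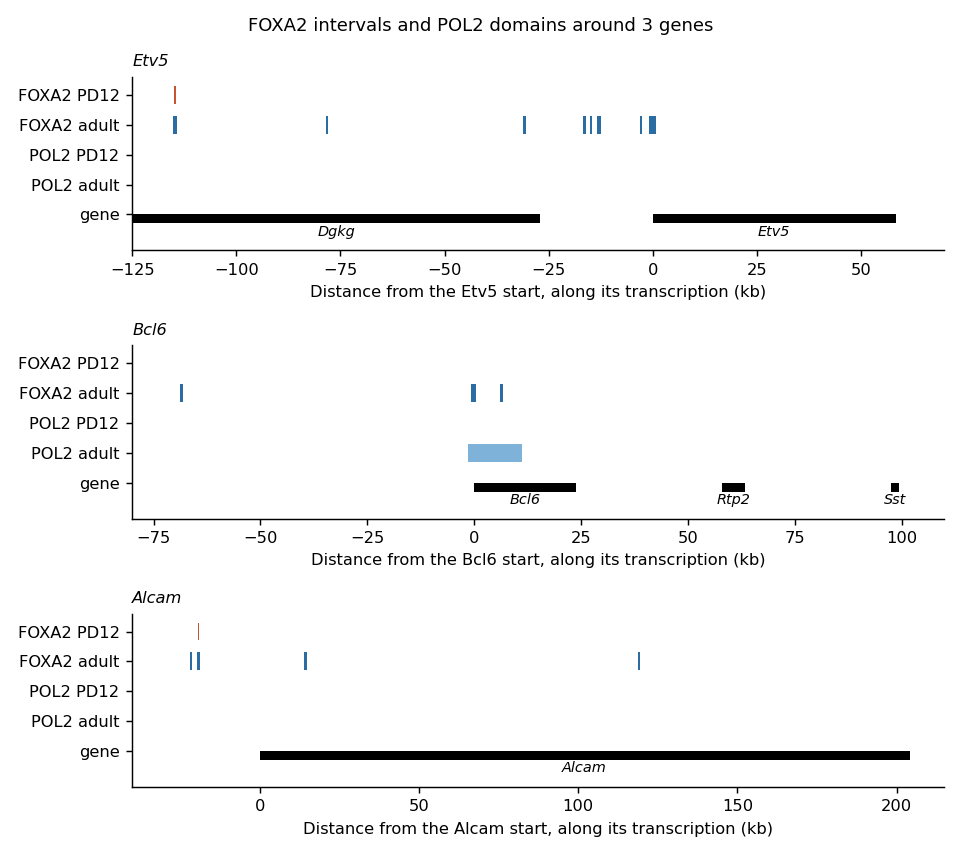
FOXA2 intervals and POL2 domains of each stage (rows) and coding genes (black) by distance from the start of Etv5, Bcl6 and Alcam (x axis, kb, positive along transcription); marks under 0.4 kb are drawn 0.4 kb wide. Etv5 shows 5 adult intervals from its start to 16.4 kb before it, Bcl6 an adult POL2 domain over its start, and Alcam the shared interval 19.2 kb before its start.

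Hes1, a repressor that Notch signalling induces, had 10 adult intervals for which it was the nearest coding gene, the largest number for any gene of the stretch. It was chosen after its values were seen. One of them, 927 bp wide, lay 1.08 kb from the gene in POL2 domains of both stages, and a second lay 4.64 kb from it. The other eight were 11.9 to 189.6 kb away and in no POL2 domain. All 10 were adult-only. The Hes1 body, 2.44 kb long, was covered by POL2 in full at both stages.

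Few members of the fixed uterine gene lists could be placed. Of 224 genes on 11 lists, 5 lay in the stretch, and 3 of these were near an adult interval and 0 near a PD12 one, where 32.5% and 2.43% of all placed coding genes were. The 3 were Etv5, Mylk (myosin light chain kinase of smooth muscle), with 2 adult intervals in its body, and Boc (a hedgehog co-receptor), with 1. Mylk had POL2 on 31.4% of its body at PD12 and 30.4% in the adult. Boc had none at PD12 and 39.8% in the adult, and its FOXA2 interval lay in the adult domain. Myh11, the smooth muscle myosin heavy chain, had no FOXA2 interval of either stage and POL2 on 95.7% and 98.8% of its body. Muc4, an epithelial mucin, had neither mark at either stage. No gland, epithelium, stroma, steroid response, Wnt, implantation or growth factor gene of the lists was in the stretch, so the labelled tissue was checked against smooth muscle alone. Foxa2 itself, on chromosome 2, was not placed.

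The forkhead motif was sought as TGTTTAC or TGTTTGC on either strand of the 300 base promoters. It was in 1578 of 21263 promoters of coding genes in the table (7.42%) and in 35 of 403 in the stretch (8.68%). Of the 46 promoters in the stretch touched by an adult interval it was in 2 (4.35%, 0.531 to 14.8), those of Cyp2ab1 and Etv5 printed above. The 2 promoters touched by the PD12 interval at Trmt2a and Ranbp1 held neither form. A match in such a window is not a binding site, and most of each interval lies outside the window.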

How the data were processed

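Each deposited list holds positions of called intervals (chromosome, start, end), per the file headers, and no score. Per the labels' protocols, chromatin sheared to 300 to 500 bp was precipitated, 30 ug with 4 ug of FOXA2 antibody. BWA is named in the submitters' processing notes without a version. The sources used here name no caller, threshold, use of input or build, and depth is unknown.

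Overlap, spacing and offsets to RefSeq starts were computed with Python 3.11.15, numpy 2.4.6, pandas 2.3.3 and scipy 1.17.1, and tested on simulated lists. The stretch on chromosome 16 came from windows with at least 4 matches within 250 bp and 1.5 times the next offset; this rule was set after the data were seen. The members and gene lists were chosen with earlier results of these data known. Genes named were those at the 10 widest intervals of a class, the 10 with the most intervals of each stage, members of the lists, and those said to be chosen later. The planned motif share of intervals was not run; promoters replaced it.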

Additional observations from a re-analysis of the deposited data

How the results depend on the processing

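Over 16 results and 41 alternatives, 17 values stayed near the reported one and 24 moved. Sharing was 15.4% of PD12 and 1.21% of adult intervals with 50% of both covered, 10.8% and 10.7% against the widest adult intervals, as many as at PD12, and 58.9% and 4.64% between the 50% widest of each list; centres within 500 bp left it at 71.1% and 5.61%. In the 50% narrowest intervals 0% of PD12 and 3.67% of adult intervals were at starts. With starts widened to 5 kb the adult share was 23.5%, and with all annotated genes 62.4% of adult centres were in a body, against 54.3%. Genes near PD12, adult and both were 17, 214 and 17 within 50 kb, and 6, 83 and 6 by body alone. Against the widest adult intervals 24 genes were near adult and 4 near both. In the inner 21.9 Mb of the stretch, an alternative added after the data were seen, 72 genes were near adult FOXA2, fewer genes being tested. List members near adult intervals were 5 within 50 kb. Neighbours within 50 kb were found for 9.91% of PD12 and 57.8% of adult intervals. Genes near FOXA2 with POL2 on at least 50% of the body were 30% at PD12 and 13.4% in the adult. For each the cause was not tested. No paired analysis was possible because neither stage had a second library. The motif share of the intervals themselves, planned, was not run.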
